A study of Mus musculus with 9 samples.

Results

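The comparison described here set irradiated mouse colon with the compound CF-2 against irradiated colon without it. It takes 6 of the 9 libraries of the series, the 3 labelled IR (numbers 2, 3 and 4) and the 3 labelled IR+CF-2 (numbers 1, 2 and 3), and leaves out the 3 libraries of mice that were not irradiated. All 6 mice were wild-type male C57BL/6, received 13 Gy, and gave colon tissue 84 h later. IR+CF-2 mice also received 4 intraperitoneal injections of CF-2 at 7.5 mg/kg, the first 1 h ahead of irradiation and the others 24, 48 and 72 h later. The labels name no injection for IR mice, so the compound and the act of injecting cannot be told apart. The design text gives an age of 8 weeks and abdominal irradiation, whereas the treatment protocol gives 6 weeks and irradiation of the total body. The labels do not say which stretch of colon was taken from each mouse. CF-2 is a code name for which the labels give no structure, and the series title names a cannabinoid receptor (CB2, encoded by Cnr2), β-catenin (Ctnnb1) and HoxA10 (Hoxa10).

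Hox genes encode transcription factors that lie in 4 clusters and record position along the body axis, and in the adult gut the genes at the posterior end of a cluster are used towards the rectum. The colon epithelium changes along the same axis, with other transporters in the proximal than in the distal part, where potassium is pumped and salt taken up. Beneath the epithelium, fibroblasts supply Wnt ligands and inhibitors of bone morphogenetic proteins to the crypt, and ionising radiation kills crypt cells and lymphocytes within days.

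6 of the 18484 genes tested passed the test (edgeR quasi-likelihood test, Benjamini-Hochberg adjusted p under 0.05), 2 of them higher in IR+CF-2 and 4 lower. These are 0.0108% and 0.0216% of the genes tested, or 0.0325% together. The genes that rose were the posterior homeobox gene Hoxa13 and 9530018H14Rik, a transcript that lies beside it. The genes that fell were Grin3a, a subunit of the NMDA class of glutamate receptors, Cdkn1c, the cyclin-dependent kinase inhibitor p57, Btnl1, a butyrophilin-like protein of gut epithelium, and Pcsk5, a proprotein convertase. An unadjusted p under 0.05 was reached by 2062 genes, or 11.2%. P-values measure the spread between the 3 mice of each group, which are labelled as biological replicates.

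Promoter sequence was at hand for 3 of the 6 genes, and the 250 bases before their start are shown because these are the loci at which RNA levels changed. They come from RefSeq on GRCm38.p6 and read 5′ to 3′ along the gene. The windows lie at chr6:52260881-52261130 on the minus strand for Hoxa13, at chr17:34376882-34377131 on the plus strand for Btnl1, and at chr19:17837633-17837882 on the minus strand for Pcsk5.
Hoxa13: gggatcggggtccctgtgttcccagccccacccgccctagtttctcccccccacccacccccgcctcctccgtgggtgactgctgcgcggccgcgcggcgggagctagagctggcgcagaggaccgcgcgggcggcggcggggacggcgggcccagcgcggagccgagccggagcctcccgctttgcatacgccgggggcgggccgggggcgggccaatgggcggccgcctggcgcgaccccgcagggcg
Btnl1: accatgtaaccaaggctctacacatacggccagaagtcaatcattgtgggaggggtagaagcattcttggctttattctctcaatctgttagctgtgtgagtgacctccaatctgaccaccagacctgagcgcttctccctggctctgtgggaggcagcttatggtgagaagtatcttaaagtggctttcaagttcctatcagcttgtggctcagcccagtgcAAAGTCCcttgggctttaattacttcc
Pcsk5: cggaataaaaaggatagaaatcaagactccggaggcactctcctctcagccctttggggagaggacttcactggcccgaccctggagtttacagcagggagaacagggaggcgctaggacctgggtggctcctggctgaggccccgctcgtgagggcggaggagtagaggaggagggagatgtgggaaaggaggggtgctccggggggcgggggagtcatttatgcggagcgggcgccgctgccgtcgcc
Capitals mark the letters AAAGTCC, the core recognised by the enterocyte nuclear receptor HNF4, which were searched on both strands along with TTTATNG, the core of CDX and posterior Hox proteins. AAAGTCC was found at position -27 from the start of Btnl1 and is held by 3.58% of 32851 windows of this length. TTTATNG, held by 9.81% of them, is not in any of the 3 windows. G and C made up 80% of the Hoxa13 window, 64% of the Pcsk5 window and 48.8% of the Btnl1 window.

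Levels are CPM, read counts scaled to the size of the library, listed in the order IR 2, 3 and 4 and then IR+CF-2 1, 2 and 3, and log2 fold changes are IR+CF-2 over IR with their standard error (n = 3 mice each). Hoxa13 (chromosome 6, 52257694 to 52260880 on GRCm38) stood at 2.73, 1.70 and 0.811 CPM in IR and at 60.6, 74.9 and 59.7 CPM in IR+CF-2. The lowest IR+CF-2 library was 21.9 times the highest IR library, and the log2 fold change was 5.22 ± 0.44 (edgeR adjusted p = 0.0299). 9530018H14Rik (chromosome 6, 52256218 to 52257460) stood at 0.169, 0.335 and 0.162 CPM and then at 8.62, 11.2 and 7.20 CPM, a log2 fold change of 5.33 ± 0.41 (edgeR adjusted p = 0.0299). It begins 233 bases from the annotated end of Hoxa13 on the same strand, so reads from Hoxa13 RNA that runs past that end cannot be told apart from it, and the pair may be 1 signal counted in 2 rows.

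Grin3a (chromosome 4, 49661611 to 49845744) had 47.8, 66.5 and 49.6 CPM in IR and 1.48, 1.32 and 2.17 CPM in IR+CF-2. Its groups lay 22-fold apart at their nearest libraries, and it had the smallest adjusted p of all genes (log2 fold change -5.04 ± 0.27, edgeR adjusted p = 0.00779). Ppp3r2, a calcineurin subunit gene that lies inside Grin3a on the same strand without sharing its exons, had 1.66, 2.32 and 2.57 CPM in IR and 0, 0.048 and 0 CPM in IR+CF-2, and was not past the test. Cdkn1c (chromosome 7, 143458339 to 143461050) had 19.4, 23.9 and 16.9 CPM and then 3.62, 4.00 and 3.96 CPM. The IR+CF-2 libraries were close to each other and well below IR (-2.38 ± 0.20, edgeR adjusted p = 0.0299). Btnl1 (chromosome 17, 34377132 to 34386028) had 63.0, 69.1 and 106 CPM and then 5.76, 3.45 and 6.52 CPM, with no overlap (-3.92 ± 0.33, edgeR adjusted p = 0.0299). Pcsk5 (chromosome 19, 17432319 to 17837632) had 67.8, 72.7 and 72.4 CPM and then 20.2, 21.5 and 26.8 CPM, the smallest change of the 6 (-1.64 ± 0.15, edgeR adjusted p = 0.0386).

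These calls rest on few mice. Without IR 2, or without IR 3, no gene passed the edgeR test (2357 and 1291 genes then had an unadjusted p under 0.05). In these fits the log2 fold change of Grin3a was -5.13 and -4.87, that of Cdkn1c -2.40 and -2.23, and that of Hoxa13 5.69 and 5.20. Without IR+CF-2 2, 39 genes were higher and 102 lower, all 6 among them. Without IR 4 the counts were 1 and 1, without IR+CF-2 1 they were 1 and 2, and without IR+CF-2 3 they were 2 and 7. A fit that also used the 3 libraries without irradiation to estimate the spread called 11 genes higher (0.0574%) and 47 lower (0.245%). It shared Grin3a, Cdkn1c, Btnl1 and Pcsk5 with the 6-library fit and gave Hoxa13 an edgeR adjusted p of 0.0953. DESeq2 called 298 genes higher (1.67%) and 318 lower (1.78%), all 6 among them. All 58 genes of the 9-library fit had groups without overlap in the 6 libraries used here. That fit holds the same 6 libraries, so this follows largely from the call and adds no support. Over all genes tested 9.67% were higher and 7.98% lower without overlap.

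**Figure D1:**
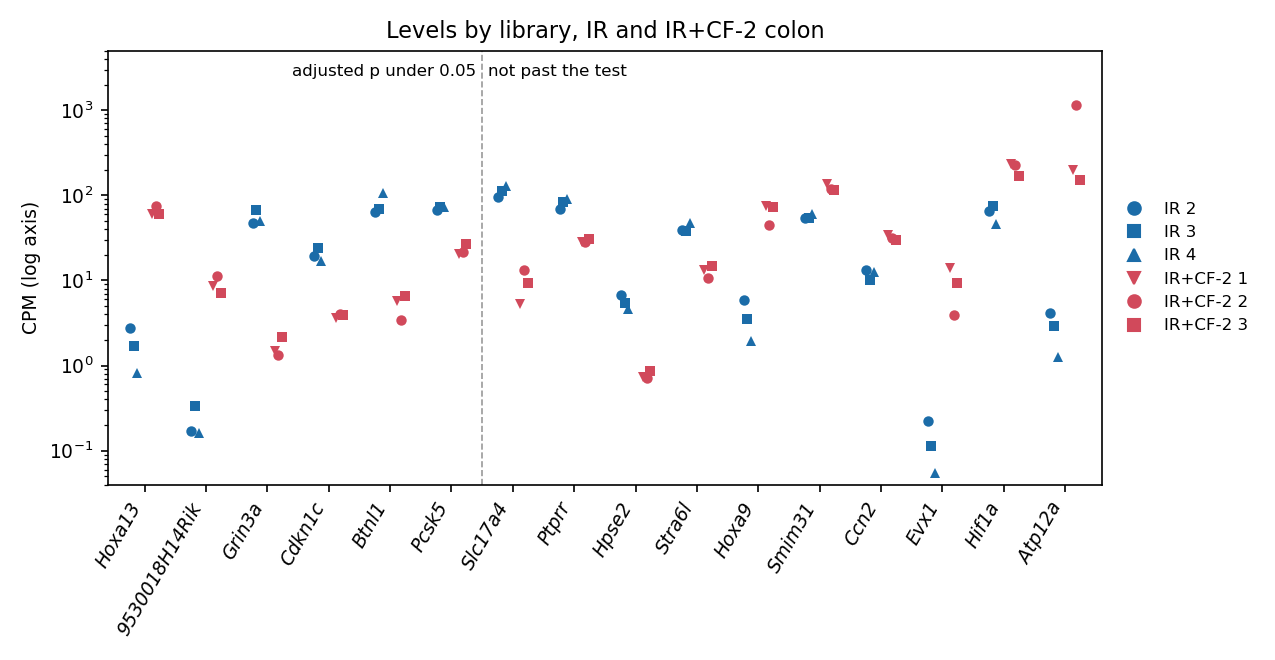
CPM on a log axis for the 6 genes past the test (left of the dashed line) and 10 of the genes with the next smallest p (right of it). Each point is 1 library, blue for IR and red for IR+CF-2, with the marker giving the library number. The genes were chosen by p from these same libraries, and none has overlapping groups. Hoxa13 goes from 0.811 to 2.73 CPM in IR to 59.7 to 74.9 CPM in IR+CF-2.

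The 6 libraries held 34.4 to 38.9 M counts in IR and 39.7 to 44.3 M in IR+CF-2, and a floor of 3 counts is 0.0679 to 0.0843 CPM. Counting error alone is covered by that floor. IR+CF-2 2 and IR 4 stood apart from their groups. On the first principal component (45.1% of the variance) IR 2, 3 and 4 lay at -11.6, -30.9 and -53.3, and IR+CF-2 1, 2 and 3 at 21.5, 70.5 and 3.79. On the second (32.9%) IR 4 and IR+CF-2 2 lay at 35.4 and 44.3 and the others between -52.4 and 3.97. Epithelial markers, the claudins and keratins among them, summed to 13100 to 16100 CPM in IR and 12300 to 15200 CPM in IR+CF-2. The small intestinal genes Lct, Apoa1, Apoa4 and Fabp6 stood at 3.30 CPM or less in all 6 libraries. Other genes of the small intestinal list were abundant. The whole list summed to 1250, 1220 and 1820 CPM in IR and 304, 598 and 524 CPM in IR+CF-2.

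**Figure D2:**
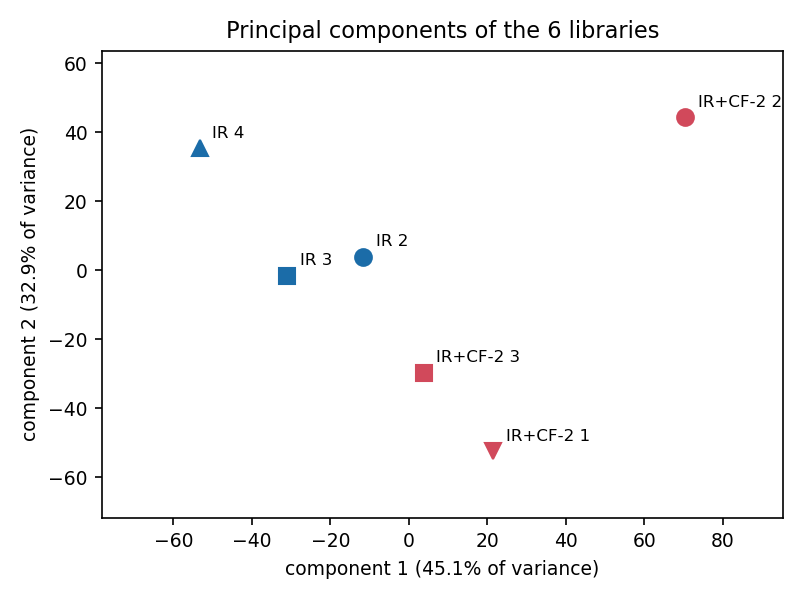
Position of the 6 libraries on the first 2 principal components of log2 CPM over the tested genes, component 1 (45.1% of the variance) across and component 2 (32.9%) upwards. Blue points are IR and red points IR+CF-2. IR+CF-2 2 lies far to the upper right at 70.5 and 44.3, and IR 4 to the upper left at -53.3 and 35.4.

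The genes next in line by p were not past the test. Their groups did not overlap, which the choice by small p in the same libraries favours. Lower in IR+CF-2 were Slc17a4, a sodium phosphate cotransporter family member of the gut (96.0, 113 and 130 against 5.26, 13.1 and 9.46 CPM, edgeR adjusted p = 0.0513), and Ptprr, a receptor tyrosine phosphatase (68.6, 84.4 and 91.7 against 28.4, 28.3 and 31.0 CPM, edgeR adjusted p = 0.0528). Hpse2, a heparanase relative without its enzyme activity, had 6.72, 5.5 and 4.57 against 0.729, 0.719 and 0.86 CPM. Stra6l, a membrane receptor for retinol-binding protein, had 39.5, 38.1 and 46.9 against 13.1, 10.7 and 14.8 CPM. The log2 fold changes of these 4 genes were -3.60 ± 0.35, -1.48 ± 0.15, -2.86 ± 0.29 and -1.69 ± 0.18. The peptide hormone gene Iapp (amylin) had 1.91, 2.35 and 2.54 against 0.251, 0.288 and 0.181 CPM. The secreted factor Fam3c (-1.25 ± 0.14), the adhesion protein Flrt3 (-1.47 ± 0.17), the guanine nucleotide exchange factor Vav2 (-1.41 ± 0.18), the amino acid transporter family member Slc7a15 (-3.88 ± 0.50) and the serine protease Prss23 (-2.26 ± 0.26) had edgeR adjusted p between 0.0602 and 0.0849. Prss23 shares 864 exonic bases with an antisense gene, and the strand setting of the counting is not given in the sources used here.

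Higher in IR+CF-2, and again not past the test, were Smim31, a small membrane protein gene, at 53.8, 54.7 and 61.1 against 136, 120 and 117 CPM (1.14 ± 0.13, edgeR adjusted p = 0.0602), and the matricellular gene Ccn2 (CTGF) at 13.2, 10.2 and 12.5 against 34.5, 31.9 and 30.1 CPM (1.43 ± 0.16, edgeR adjusted p = 0.0602). Hif1a, the oxygen-regulated subunit of hypoxia-inducible factor, had 65.8, 75.4 and 46.2 against 236, 227 and 171 CPM. The secreted angiopoietin-like gene Angptl7 had 1.71, 0.782 and 0.865 against 11.8, 17.4 and 8.42 CPM. For both, the nearest libraries of the groups lay over 2-fold apart, and the log2 fold changes were 1.76 ± 0.23 and 3.48 ± 0.44 (edgeR adjusted p = 0.0897 and 0.0849). Smaller differences were seen for Slc25a12, a mitochondrial aspartate-glutamate carrier (1.09 ± 0.16), and for Tln2, a talin that links integrins to actin (1.18 ± 0.17). The transcription factor gene Foxn1, best known from thymic and hair epithelium, had 0.45, 0.307 and 0.622 against 3.42, 4.03 and 2.83 CPM. The antibody variable segment Ighv3-6 had 1.91, 3.10 and 4.57 against 28.0, 18.3 and 21.3 CPM.

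The fit with 9 libraries called some genes that the 6-library fit did not. Among them were Fam3c, Stra6l, Slc17a4, Ptprr, Prss23, Ppp3r2, Ccn2, Cyp2d26, Sis and Atp12a, and also Atp11a, a phospholipid flippase (114, 137 and 108 against 61.6, 59.6 and 60 CPM, adjusted p = 0.0251 in the 9-library edgeR fit and 0.0909 in the 6-library fit). The receptor phosphatase Ptprd had 92.0, 102 and 106 against 57.0, 45.8 and 55.3 CPM, and the stress protein gene Sesn3, a sestrin, had 45.4, 51.8 and 45.1 against 28.2, 26.7 and 25.6 CPM. Cpn1, a carboxypeptidase subunit, and Tmc1, a mechanotransduction channel gene known from the inner ear, were lower too (-2.06 ± 0.30 and -2.17 ± 0.34). Each of these 5 genes was lower in all 3 IR+CF-2 libraries than in any IR library. Their choice by adjusted p in a fit that holds these libraries favours this.

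Most HoxA genes were higher in IR+CF-2 and most HoxB genes lower. In HoxA all 11 genes were tested, 9 of them were higher in all 3 IR+CF-2 libraries than in any IR library and none was lower, with a median log2 fold change of 1.88 against 0.08 over all genes tested. In HoxB 9 of 10 genes were tested, 7 were lower in all 3 IR+CF-2 libraries and 1 was higher, with a median of -2.04. As background for these and all later lists, 9.67% of all genes tested were higher and 7.98% lower in this sense. Within HoxA the differences were larger from Hoxa5 to Hoxa13 than from Hoxa2 to Hoxa4. Hoxa2 had 3.01, 2.93 and 3.16 CPM in IR and 3.75, 4.36 and 4.30 CPM in IR+CF-2. Hoxa5, in the middle of the cluster, had 7.39, 3.02 and 2.62 against 14.5, 15.9 and 17.4 CPM. Hoxa9 had 5.87, 3.49 and 1.97 against 75.4, 44.4 and 73.8 CPM (4.09 ± 0.45, edgeR adjusted p = 0.0602). In each of the 3, the groups lay apart, by a margin that was widest for Hoxa9.

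Hoxa10, the homeobox gene of the series title, had 9.08, 5.05 and 3.08 CPM in IR and 81.2, 41.7 and 83.4 CPM in IR+CF-2. Its groups lay 4.59-fold apart at the nearest libraries, and the difference missed the threshold (3.58 ± 0.47, edgeR adjusted p = 0.0908). Per length, Hoxa13, Hoxa10 and Hoxa9 had mean levels of 27.5, 21.1 and 11.6 FPKM in IR+CF-2 and 0.731, 1.76 and 0.68 FPKM in IR, so the order of Hoxa13 and Hoxa10 differed between the groups. Evx1, the homeobox gene next to the posterior end of HoxA, had 0.225, 0.112 and 0.0541 CPM against 14, 3.93 and 9.46 CPM (6.11 ± 0.71, edgeR adjusted p = 0.0602). It was near the floor in IR and well above it in every IR+CF-2 library.

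The 7 lower HoxB genes were Hoxb3 to Hoxb9, the higher one was Hoxb13, and Hoxb2 overlapped at 1.04, 0.447 and 1.30 against 0.729, 1.03 and 0.407 CPM. None of them passed the test. Hoxb6 had 73.0, 80.6 and 97.3 CPM in IR and 4.4, 3.29 and 39.3 CPM in IR+CF-2, and Hoxb8 had 27.3, 27.6 and 44.8 against 1.79, 1.46 and 13.8 CPM. In both, IR+CF-2 3 lay between the other IR+CF-2 libraries and IR. Hoxb9 differed less, with 78.0, 72.6 and 98.5 against 40, 53 and 63.6 CPM. Hoxb13 had no count in any IR library and 8.98, 282 and 1.27 CPM in IR+CF-2, a group mean at least 1170-fold higher than in IR, against the floor of 3 counts averaged over the IR libraries. Most of that mean came from IR+CF-2 2. In HoxD 5 of 9 genes were tested, and Hoxd4 and Hoxd8 were lower in all IR+CF-2 libraries (Hoxd8 17.4, 13.1 and 7.97 against 1.48, 2.83 and 5.77 CPM). Hoxd13, which was not tested, had 154 CPM in IR+CF-2 2 and 0.281 CPM or less in the other 5 libraries. A strong posterior HoxD signal thus came from 1 mouse. Of the HoxC genes 2 of 8 were tested, and none was above 0.843 CPM.

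**Figure D3:**
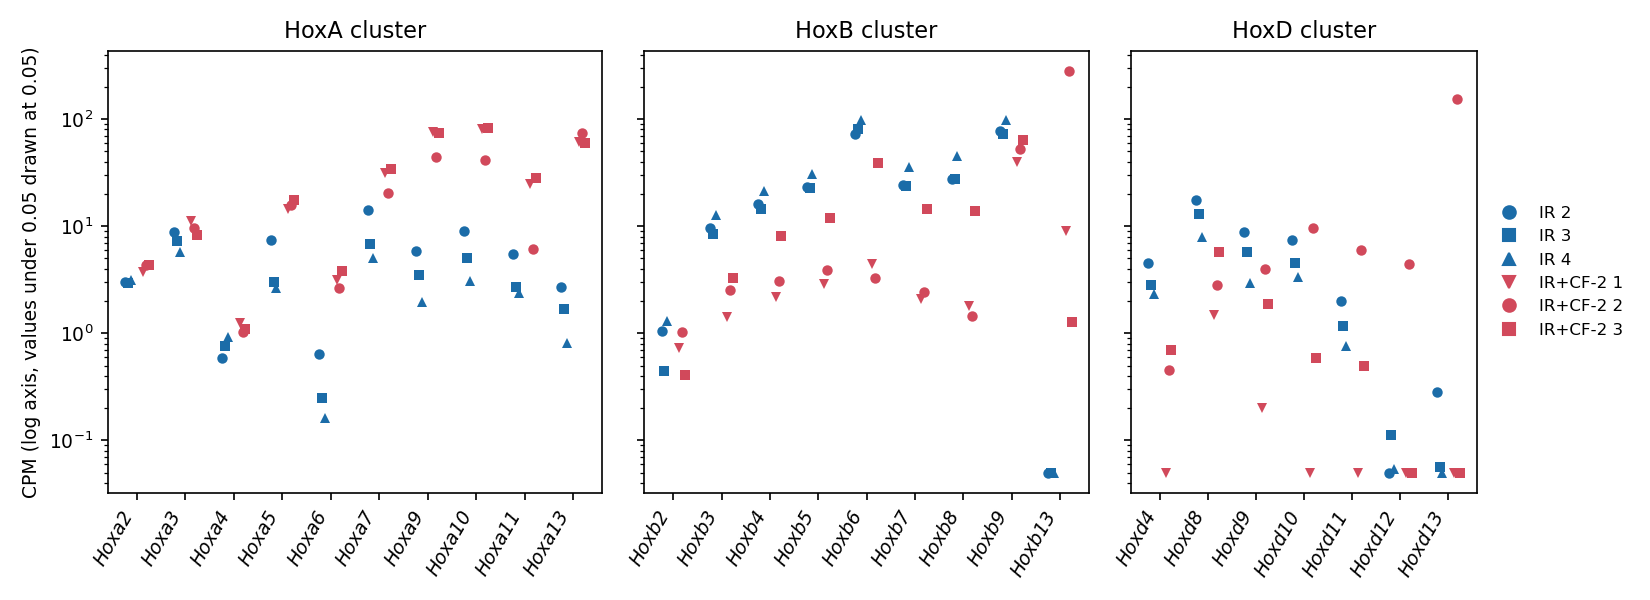
CPM on a log axis for genes of the HoxA (from Hoxa2 on), HoxB and HoxD clusters in the order anterior to posterior, 1 point per library, blue for IR and red for IR+CF-2, with values under 0.05 drawn at 0.05. Hoxb1, Hoxd1 and Hoxd3, which were not tested, are left out, but Hoxd13, also not tested, is drawn. Red points lie above blue ones towards the right of HoxA and below them across most of HoxB, and Hoxb13 and Hoxd13 reach 282 and 154 CPM in IR+CF-2 2.

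Several genes that mark the distal colon were higher along with posterior HoxA. Of 10 genes listed for the distal colon 7 were tested, with 5 higher in all IR+CF-2 libraries and 2 overlapping. Over all genes tested 9.67% were higher in this sense. Besides Hoxa13 and Hoxb13, Atp12a, the potassium pump of distal colonocytes, had 4.16, 2.90 and 1.27 CPM in IR and 199, 1140 and 150 CPM in IR+CF-2 (7.48 ± 1.07, edgeR adjusted p = 0.103). The hormone gene Insl5, made by endocrine cells of the distal colon, had 1.41, 2.29 and 1.46 against 42.3, 172 and 26.5 CPM. Aqp8, a water channel, had 9.70, 11.6 and 71.1 against 239, 699 and 194 CPM. All 3 genes were higher in every IR+CF-2 library than in any IR library, and highest in IR+CF-2 2. The margin was narrowest for Aqp8, with 71.1 CPM in IR 4 and 194 CPM in IR+CF-2 3. The chloride-bicarbonate exchanger Slc26a3 had 62.0, 54.4 and 200 against 343, 1530 and 480 CPM, and the water channel Aqp4 26.6, 21.4 and 111 against 221, 314 and 164 CPM. Fxyd4, a regulator of the sodium pump, had 55.6 CPM in IR+CF-2 2 and 0.135 CPM or less elsewhere. In a wider list of ion and water transport genes 24 were tested, and 5 were higher, 2 lower and 17 overlapping (median 0.17). An effect of CF-2 and a difference in where along the colon the tissue was cut cannot be told apart. In a fit with the level of Hoxa13 as a further term no gene passed the edgeR test, and 1337 had an unadjusted p under 0.05. Since the level of Hoxa13 did not overlap between the groups, that term and CF-2 carry much of the same information.

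Many genes of digestion, transport and drug metabolism were lower in IR+CF-2. In the list of small intestinal genes 12 of 15 were tested, and 6 were lower and 1 higher in all IR+CF-2 libraries, with a median of -1.14. The disaccharidase gene Sis had 7.42, 10.4 and 6.14 CPM in IR and 0.0503, 0 and 0.226 CPM in IR+CF-2, at or near the floor (-6.36 ± 0.87, edgeR adjusted p = 0.0991). Slc10a2, the ileal bile acid transporter, had 455, 382 and 434 against 23.6, 13.7 and 148 CPM, and the metalloprotease Mep1a 351, 405 and 540 against 28.0, 243 and 61.2 CPM. Against the rest, the peptide transporter Slc15a1 had 8.09, 6.76 and 8.43 against 9.33, 163 and 16.4 CPM. The high value was again that of IR+CF-2 2.

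Among gut solute carriers 18 of 20 were tested, 11 were lower in all IR+CF-2 libraries and 1 higher, with a median of -0.95 (-1.64 without IR+CF-2 2). Slc17a4 heads this list. The bile acid exporter subunit Slc51a had 139, 145 and 154 CPM in IR and 3.37, 0.144 and 28.9 CPM in IR+CF-2. Slc3a1, which carries cystine and dibasic amino acids, had 71.1, 76.5 and 81.4 against 8.05, 3.00 and 31.2 CPM. In both genes IR was tight and IR+CF-2 spread over more than 10-fold, with IR+CF-2 3 nearest to IR. The zinc importer Slc39a4 had 371, 445 and 276 against 184, 131 and 240 CPM, and the carnitine transporter Slc22a5 46.1, 51.7 and 72.0 against 24.7, 33.5 and 34.4 CPM. The iron exporter Slc40a1 (ferroportin) had 306, 408 and 336 against 30.2, 201 and 65.6 CPM.

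Of the drug metabolism genes 21 of 23 were tested, 10 were lower and none higher in all IR+CF-2 libraries, with a median of -1.10. Without IR 4 the median was -0.70. The cytochrome P450 genes led the list. Cyp2d26 had 98.7, 162 and 56.0 CPM in IR and 5.20, 7.82 and 12.1 CPM in IR+CF-2 (-3.66 ± 0.49, edgeR adjusted p = 0.0908). Cyp2c55 had 1190, 1860 and 3180 against 125, 326 and 87.5 CPM, and Cyp2c66 4.53, 5.72 and 9 against 0.151, 0 and 0.611 CPM. The bilirubin-conjugating enzyme gene Ugt1a1 had 7.98, 6.93 and 28.8 against 0.729, 1.68 and 2.92 CPM. These genes belong to families of similar sequence, and how reads shared between members were counted is not given in the sources used here. Nr1i2, the xenobiotic receptor PXR, overlapped between the groups at 67.7, 78.7 and 92.8 against 44.5, 76.9 and 61.0 CPM.

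Brush border genes had 16 of 16 tested, 6 lower and 1 higher in all IR+CF-2 libraries, and a median of -0.32. The intermicrovillar cadherins Cdhr2 and Cdhr5 had 905 to 1080 and 946 to 1180 CPM in IR and 332 to 750 and 385 to 772 CPM in IR+CF-2. The unconventional myosin Myo3a had 8.99, 8.43 and 5.16 against 1.23, 1.08 and 2.15 CPM, and the protease Mep1b 241, 269 and 210 against 66.0, 124 and 119 CPM. Absorptive colonocyte genes were divided, with 3 of 14 higher and 5 lower. Aqp8 and Slc26a3 were on the higher side, while Car1, a carbonic anhydrase of the proximal colon, had 7040, 8960 and 12500 against 1410, 2590 and 3640 CPM. The guanylin gene Guca2a had 527, 686 and 1040 against 244, 361 and 359 CPM. General epithelial markers differed little, with 3 of 12 lower, none higher and a median of -0.16, and Epcam had 1710, 2120 and 1790 against 1380, 1410 and 1320 CPM. Among 20 junction genes 5 were lower and none higher (median -0.26), such as the claudin Cldn23 (58.4, 70.7 and 64.2 against 37.8, 41.2 and 29.4 CPM) and the tricellular junction gene Marveld2 (49.4, 59.8 and 58.6 against 35.0, 40.9 and 37.3 CPM).

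Butyrophilin-like proteins on gut epithelial cells pair with one another and maintain the intraepithelial γδ T cells beside them. Of 11 tested genes of this system 6 were lower and none higher in all IR+CF-2 libraries, with a median of -0.81. Btnl1 was the only 1 of them past the test, against 0.0325% of all genes tested. Its partner gene Btnl6 had 118, 132 and 172 CPM in IR and 77.0, 75.7 and 87.9 CPM in IR+CF-2, a smaller difference without overlap. Btnl2 had 19.2, 21.8 and 14.5 against 6.49, 1.10 and 5.66 CPM, and Btnl4 overlapped at 96.3, 111 and 161 against 95.6, 70.7 and 98.5 CPM. The members are similar in sequence, and the level of one may include reads of another. The lymphocyte cytokine Il15 had 13.0, 15.1 and 19.4 against 6.36, 11.6 and 5.98 CPM. Markers of the lymphocytes themselves were low in both groups: the integrin gene Itgae had 2.40 to 4.30 CPM in IR and 1.38 to 1.80 CPM in IR+CF-2, and the receptor gene Cd160 1.01 to 1.54 CPM and 0.336 to 0.724 CPM. In whole tissue, fewer cells of a type and less RNA per cell cannot be told apart.

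Most connective tissue genes were higher in IR+CF-2. All 25 collagen and matrix genes were tested, 19 were higher and none lower in all IR+CF-2 libraries, with a median of 1.08. Col5a2 had 67.9, 42.6 and 38.7 CPM in IR and 108, 148 and 93.7 CPM in IR+CF-2, the basement membrane collagen Col4a2 141, 86.5 and 60.3 against 221, 266 and 184 CPM, and fibronectin (Fn1) 185, 97.1 and 124 against 289, 601 and 249 CPM. None of these genes passed the test. Among 12 fibroblast markers 7 were higher and none lower (median 1.12), and Foxl1, the transcription factor of subepithelial telocytes, had 2.30, 1.79 and 0.973 against 6.86, 4.87 and 5.09 CPM. Fibroblast markers summed to 1560, 1070 and 587 CPM in IR and 2190, 3470 and 1820 CPM in IR+CF-2, with IR 4 lowest and IR+CF-2 2 highest. Smooth muscle markers went the same way with overlap, at 3550, 2080 and 1450 against 3790, 5020 and 3370 CPM in sum, and 4 of 10 were higher in all IR+CF-2 libraries (median 0.80, but 0.51 without IR+CF-2 2 and 0.29 without IR 4 and IR+CF-2 2). Whether the share of stromal tissue in the samples plays a part was not tested. Without IR 4 and IR+CF-2 2 the medians of the matrix and fibroblast lists were 0.58 and 0.59, and with the Hoxa13 term they were -3.83 and -4.74. The Hoxa13 term and CF-2 carry much of the same information, so no conclusion is drawn from the last 2 values.

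Many genes of the stromal crypt niche were higher as well. Of 21 Wnt and bone morphogenetic protein genes 19 were tested, 10 were higher and none lower in all IR+CF-2 libraries, with a median of 1.4 (0.76 without IR 4 and IR+CF-2 2). The bone morphogenetic protein antagonist Grem1, made by fibroblasts below the crypt, had 41.1, 30.7 and 10.3 CPM in IR and 261, 127 and 134 CPM in IR+CF-2. The secreted Wnt antagonists Sfrp1 and Frzb had 41.3, 32.5 and 15.9 against 87.8, 79.6 and 81.0 CPM and 2.16, 1.28 and 1.24 against 7.92, 7.17 and 3.53 CPM. The ligand Bmp4 had 21.4, 14.8 and 7.41 against 45.1, 34.0 and 39.2 CPM. In all 4 genes the lowest IR+CF-2 library was above the highest IR library, and antagonists and ligands stood on the same side.

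Targets of YAP and TGF-β were higher in 10 of 16 genes and lower in none, with a median of 0.78. Ccn2 leads this list, and its relative Ccn1 (CYR61) had 15.4, 14.9 and 9.70 CPM in IR and 42.4, 27.5 and 35.0 CPM in IR+CF-2. Of 8 tested genes of the plasminogen system and its serpins 4 were higher, 2 lower, Prss23 among them, and none past the test (median 0.96). Plat, the tissue type activator, had 19.1, 16.2 and 15.2 against 45.3, 37.3 and 33.1 CPM, and Plau, urokinase, 16.6, 14.6 and 8.57 against 74.1, 40.7 and 24.2 CPM. Matrix metalloproteinases and their relatives had 7 of 16 genes higher and none lower (median 1.16). Mmp3 (stromelysin) had 1.91, 2.96 and 0.811 against 28.3, 8.49 and 7.11 CPM, and the inhibitor Timp1 2.98, 3.46 and 2.38 against 12.7, 13.9 and 6.57 CPM. Both Mmp3 and Timp1 were thus at higher levels in every IR+CF-2 library.

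**Figure D4:**
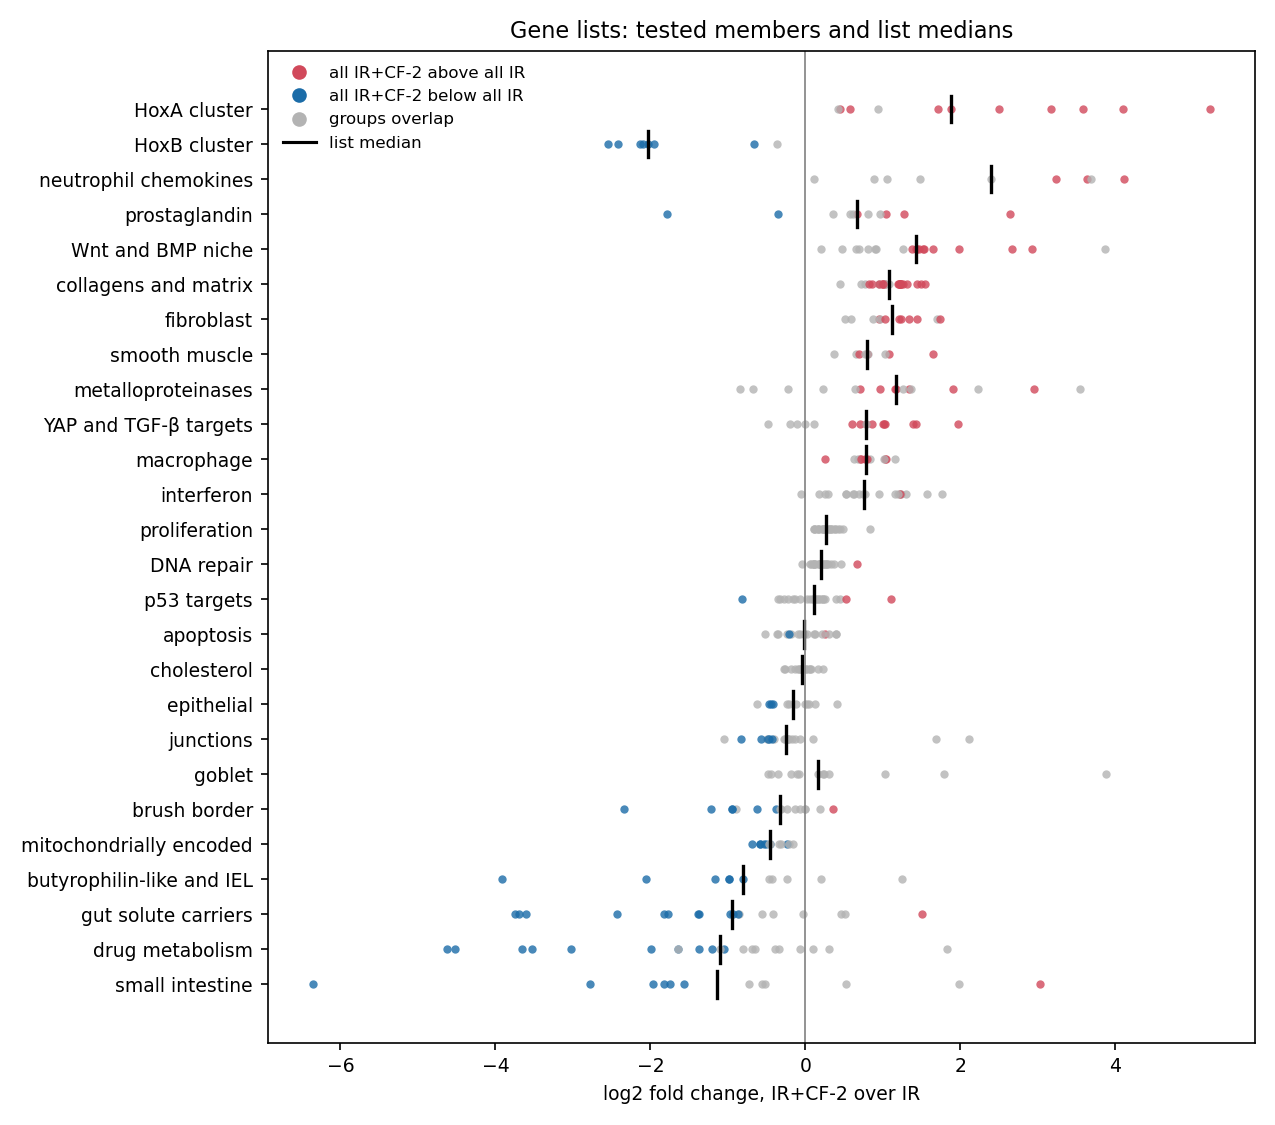
Log2 fold change of IR+CF-2 over IR for the tested members of 26 gene lists, 1 point per gene, red or blue where all 3 IR+CF-2 libraries lay above or below all 3 IR libraries and grey where the groups overlapped. Black bars are list medians. Hoxb13, at 0 in IR, has no point. HoxA, chemokine and stromal lists lie to the right of 0, HoxB, transport and drug metabolism lists to the left, and the medians of the proliferation, DNA repair and apoptosis lists are 0.27, 0.20 and -0.02 against 0.08 over all genes.

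Of 14 chemokines and cytokines that recruit neutrophils 9 were tested, of which 3 were higher in all IR+CF-2 libraries and 6 overlapped, none of them past the test, with a median of 2.39 (1.23 without IR+CF-2 1). Cxcl1 had 0.675, 1.12 and 0.27 CPM in IR and 6.08, 7.03 and 12.6 CPM in IR+CF-2, and Cxcl5 2.42, 8.94 and 0.919 against 72.5, 25.8 and 16.6 CPM. Cxcl2 had 0.899, 1.37 and 0.108 against 7.19, 2.11 and 31.9 CPM. Cxcl1 and Cxcl2 were thus highest in IR+CF-2 3, and Cxcl5 in IR+CF-2 1. Neutrophil markers had 7 of 11 tested, with 3 higher in all IR+CF-2 libraries and a median of 2.37. The alarmin S100a8 had 0.281, 1.34 and 0.135 against 8.47, 2.73 and 6.47 CPM, and the receptor Csf3r 1.41, 1.51 and 0.649 against 9.18, 6.74 and 2.49 CPM. The list summed to 10.5, 14.5 and 3.76 CPM against 43.3, 19.3 and 16.1 CPM, and the granule genes Mpo, Elane and Ngp were below the floor in all 6 libraries.

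Of 11 tested genes of the prostaglandin pathway 4 were higher in all IR+CF-2 libraries, 2 were lower and 5 overlapped, none of them past the test, with a median of 0.66 (0.30 without IR+CF-2 2). Ptgs2 (cyclooxygenase 2) had 4.86, 3.38 and 2.30 CPM in IR and 37.2, 16.7 and 12.0 CPM in IR+CF-2, and the synthase Ptges, which acts after it, 7.11, 7.29 and 5.43 against 18.9, 16.7 and 12.1 CPM. Hpgd, which degrades prostaglandins, had 235, 223 and 276 against 29.2, 119 and 64.5 CPM. The groups lay apart in each of these 3 genes, Ptgs2 and Ptges being higher and Hpgd lower in IR+CF-2. Among antimicrobial genes 2 of 16 were higher and 2 lower (median -0.12), near the 9.67% and 7.98% of all genes tested. The siderophore binder Lcn2 had 1.46, 2.46 and 2.00 against 8.67, 11.8 and 6.29 CPM. The lectin Reg3b had 7080, 6340 and 13900 against 130, 1.39 and 2220 CPM, over 1000-fold apart between IR+CF-2 2 and IR+CF-2 3.

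Markers of other cells split by type. Macrophage markers had 7 of 13 higher and none lower (median 0.78), and the receptor gene Csf1r had 20.6, 18.2 and 16.1 CPM in IR and 40.6, 44.1 and 27.5 CPM in IR+CF-2. Without IR+CF-2 2 the macrophage median was 0.47. B and plasma cell markers had 11 of 13 tested, 5 higher and 2 lower, with a median of 0.67 (0.44 without IR+CF-2 2, and 0.34 without IR 4 and IR+CF-2 2). The antibody chain Igha had 313, 316 and 418 against 825, 894 and 742 CPM (1.23 ± 0.18, edgeR adjusted p = 0.103), and the joining chain Jchain 86.1, 86.8 and 121 against 221, 276 and 185 CPM. Both were higher in every IR+CF-2 library than in any IR library, and so was the B cell receptor gene Cd79b, at 0.324 to 0.503 and 0.815 to 1.18 CPM. T and NK cell markers had 15 of 16 tested, 2 higher, 3 lower and 10 with overlap (median -0.42, and -0.08 without IR 4 and IR+CF-2 2). The 3 lower genes were Cd8a, Gzma and Gzmb. The T cell co-receptor gene Cd8a had 2.14, 2.51 and 2.51 against 0.603, 0.48 and 0.634 CPM, the granzyme Gzma 2.98, 4.94 and 6.38 against 1.66, 0.528 and 0.634 CPM, and Gzmb 3.60, 5.39 and 4.38 against 2.56, 0.599 and 0.906 CPM. The co-receptor gene Cd4 was 1 of the 2 higher genes, at 2.92, 2.76 and 2.00 against 3.87, 3.45 and 4.78 CPM.

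Of all genes tested 9.67% were higher in all IR+CF-2 libraries. Endothelial markers had 2 of 12 higher (median 0.75, and -0.08 without IR+CF-2 2) and enteric neuron and glia markers none of 12. The median of the latter was 0.51, but 0.29 without IR 4, 0.06 without IR+CF-2 2 and -0.13 without both. Of 9 mast cell genes 2 were tested, and the chymase Cma1 had 90.5 CPM in IR+CF-2 2 and at most 1.68 CPM in the others while the mast cell genes Cpa3, Fcer1a and Ms4a2 were at 0 in 5 of 6 libraries. Goblet cell genes had none of 13 without overlap. Their median of 0.16 became -0.40 without IR+CF-2 2, -0.03 without IR 3 and -0.49 without IR 4 and IR+CF-2 2. Muc2, the main gel-forming mucin, had 13200, 6320 and 12100 against 10400, 3750 and 10600 CPM. Tuft cell genes had 2 of 9 lower, among them the taste channel Trpm5 (5, 4.33 and 7.92 against 0.855, 2.66 and 0.702 CPM). Enteroendocrine genes differed by hormone. Proglucagon (Gcg) had 47.2, 56.5 and 58.0 against 91.5, 102 and 109 CPM, and Tph1, the enzyme of serotonin synthesis, 41.5, 36.3 and 29.0 against 20.5, 21.3 and 15.2 CPM. In the list as a whole 3 of 12 were higher and 4 lower.

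Among genes of proliferation, DNA repair and the interferon response most had a log2 fold change above 0 and few had groups without overlap. As background, 11047 of the 18484 genes tested had a log2 fold change above 0. All 22 proliferation genes had a log2 fold change above 0, none of them without overlap, with a median of 0.27. They summed to 2300, 2240 and 1990 CPM in IR and 3310, 1440 and 3120 CPM in IR+CF-2. IR+CF-2 2 thus stood apart, below every IR library. The ribonucleotide reductase gene Rrm2 had 102, 107 and 69.1 CPM in IR and 233, 49.4 and 212 CPM in IR+CF-2, with IR+CF-2 2 again lowest. Without that library the median was 0.47, whereas leaving out IR+CF-2 1 gave 0.09 and leaving out IR+CF-2 3 gave 0.12. Of 25 DNA repair genes 24 had a log2 fold change above 0 (median 0.20), and 1 was higher without overlap. Among 24 p53 targets 2 were higher and 1 lower (median 0.11), no larger a share than the 9.67% and 7.98% of all genes tested. The stress cytokine Gdf15 had 14.2, 18.3 and 7.54 against 22.7, 38.6 and 24.7 CPM. The death receptor Fas had 20.1, 23.1 and 24.4 against 16.4, 12.7 and 9.39 CPM. Cdkn1a, the p53-driven inhibitor p21, overlapped at 310, 394 and 277 against 450, 337 and 382 CPM. Its family member Cdkn1c was the only one of 12 tested cell cycle inhibitor genes past the test, against 0.0325% of all genes tested. Apoptosis genes had 1 of 18 higher and 1 lower (median -0.02), again no larger a share than over all genes. Of 20 interferon-stimulated genes 19 had a log2 fold change above 0, and 1 was higher without overlap (median 0.76, and 0.40 without IR+CF-2 1), and Isg15 had 35.4, 56.7 and 18.7 against 223, 41.6 and 112 CPM. Among 16 hypoxia genes 3 were higher and 2 lower (median 0.13), Hif1a among the former.

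Of the genes in the title, Ctnnb1 had 847, 920 and 784 CPM in IR and 650, 641 and 710 CPM in IR+CF-2, lower in all 3 and not past the test (-0.35 ± 0.15, edgeR adjusted p = 0.463). Cnr2 was near 1 CPM throughout, at 0.815, 1.01 and 0.73 against 1.21, 1.17 and 0.996 CPM, with overlap (0.40 ± 0.31, edgeR adjusted p = 0.677). A list of β-catenin pathway genes, which mixes targets with other members of the pathway, had 22 of 24 tested. Of these 4 were higher and 3 lower, with a median of 0.09. The target gene Sp5 had 4.08, 5.28 and 1.84 against 0.805, 0.288 and 1.83 CPM, and Tcf7l1, a repressor of the pathway, 6.18, 3.32 and 4.60 against 9.33, 46.5 and 10.3 CPM. Among crypt stem and progenitor genes 2 of 16 were higher and 2 lower (median 0.02), near the 9.67% and 7.98% of all genes tested. Prom1, the CD133 antigen, had 744, 973 and 654 against 286, 205 and 336 CPM, and Msi1, an RNA-binding protein of progenitors, 3.85, 2.90 and 3.30 against 1.36, 1.08 and 1.56 CPM. Endocannabinoid genes had 2 of 14 higher and 2 lower (median 0.05), also near the share of all genes. The degrading enzyme Faah was among the lower ones, at 39.5, 41.6 and 48.6 against 27.3, 23.8 and 34.0 CPM. None of these genes passed the test.

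Imprinted genes were looked at because Cdkn1c is one of them. Of 15 tested 3 were higher and 1 lower, Cdkn1c itself. Dlk1, a paternally expressed inhibitor of differentiation, had 0.478, 0.67 and 0.216 CPM in IR and 5.38, 4.39 and 2.42 CPM in IR+CF-2, and Phlda2, a placental growth inhibitor that lies near Cdkn1c, 2.33, 4.24 and 2.78 against 12.5, 5.59 and 9.37 CPM. Both went the way opposite to Cdkn1c. Mitochondrially encoded genes had 7 of 13 lower and none higher, with a median of -0.46 (-0.73 without IR+CF-2 2). They made up 4.14, 4.66 and 5.20% of the counts in IR and 2.70, 3.87 and 2.93% in IR+CF-2. Cholesterol synthesis genes had none of 16 without overlap (median -0.04).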

How the data were processed

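Paired-end poly(A) RNA libraries of mouse colon were compared, 3 of irradiated mice (IR) and 3 of irradiated mice given CF-2 (IR+CF-2). Groups and library numbers follow the labels, and nothing in the labels says that equal numbers belong together. The submitters' processing notes name HISAT2, featureCounts and DESeq2, and GRCm38 and mm10 as builds. How strand and reads that map to several genes were handled is not given in these sources. Per the file headers the authors deposited whole-number read counts for 33539 genes, with totals of 34.4 to 44.3 M counts per library. Per the file headers the authors also deposited FPKM, counts per length and library size, used here only to set levels of Hox genes side by side.

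Counts of the 6 libraries went into edgeR 4.0.16 under R 4.3.3 (filterByExpr, TMM scaling, quasi-likelihood F-test with robust = TRUE). Tests were 2-sided and adjusted by Benjamini and Hochberg over 18484 genes, with a threshold of 0.05. Standard errors were derived from F and the fold change, and the biological coefficient of variation of the fit was 33.2%. CPM use the TMM-scaled library size, and 3 counts are the floor. Principal components and the Hoxa13 term use log2(CPM + 0.5). Floors cover counting error only.

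The members and 48 gene lists were chosen with earlier results of these data known. Named were all genes past the test, the 15 with the smallest p in each direction, the genes of the title, 15 genes called by a fit with all 9 libraries, and in each described list the 4 members with the smallest p and those that define it. Predicted genes, clone names and pseudogenes were counted and left unnamed, except 9530018H14Rik, and some genes of the rule are not reported here. List members named beyond this rule were chosen after their values were seen. A group lies above or below another where all 3 of its libraries do. Coordinates are those of GENCODE M21 on GRCm38, which holds 32869 of the gene identifiers, and promoters are from RefSeq. The pipeline was tested on simulated counts. Alternatives were other scalings (RLE, upper quartile), filters and thresholds, DESeq2 1.42.0, limma-voom (limma 3.58.1), robust = FALSE, a replicate block, leaving out mitochondrial and the 20 most abundant genes, a Hoxa13 term, and leaving out libraries.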

Additional observations from a re-analysis of the deposited data

How the results depend on the processing

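The count of genes past the test was 2 higher and 4 lower in IR+CF-2, and it moved widely. It was 11 and 47 with all 9 libraries, 32 and 50 with no filter, 298 and 318 with DESeq2, 5 and 15 with limma-voom, and 140 and 246 without IR 4 and IR+CF-2 2. With RLE scaling 9 genes were lower, with upper quartile scaling 7, with a filter of 1 CPM in 3 libraries 10, and with robust = FALSE 7. At an edgeR adjusted p under 0.01 it was 0 and 1, the latter Grin3a. Leaving out 1 library each gave 0 to 39 higher and 0 to 102 lower, with 1 group of 2 mice in each such fit. With the replicate number as a block 3 were higher and 2 lower, Hoxa13 and Grin3a among them, and Cdkn1c, Btnl1, Pcsk5 and 9530018H14Rik had edgeR adjusted p of 0.114, 0.0662, 0.156 and 0.114. List medians with the block were 0.68 for neutrophil chemokines (2.39 without it), 1.44 for neutrophil markers (2.37) and -0.07 for proliferation (0.27). The block covers 2 shared numbers, whose deviations from the group means correlated at 0.126 and 0.0552, and nothing shows that it pairs the mice. With Hoxa13 as a term 0 were higher and 0 lower (edgeR, 1337 at an unadjusted p under 0.05), and log2 fold changes changed sign for Hoxa9 (-0.49), Hoxa10 (-0.78), Atp12a (-2.62), Angptl7 (-0.83), Hif1a (-0.41), Slc25a12 (-0.029), Cnr2 (-0.43), Ptprd (0.11) and Ptprr (0.052). The value of Hoxa13 itself (-1.13) follows from its own level being the term and tests nothing. For the other genes, the term and CF-2 carry much of the same information, so no conclusion is drawn from these signs. No alternative without that term changed the sign of any of the 40 genes named by p, by title or from the 9-library fit. The median of all genes was -0.05 with that term and -0.02 without IR+CF-2 2, against 0.08. Depth limits the values of Hoxb13 in IR and of Ppp3r2 and Sis in IR+CF-2, which are at or near the floor of 3 counts.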

Other observations

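Some of the widest differences between the groups belonged to genes outside the lists, chosen here after their values were seen. Tgm3, a transglutaminase of epithelia, had 0.45, 0.67 and 0.865 CPM in IR and 12.7, 2020 and 9.06 CPM in IR+CF-2. Mptx1, a pentraxin-family gene of mouse gut, had 0.225, 0.447 and 0.162 against 38.6, 699 and 2.38 CPM. In both the groups lay apart, and most of the IR+CF-2 mean came from IR+CF-2 2. The transcription factor gene Osr2 went the other way, with 87.1, 84.1 and 141 CPM in IR and 0.503, 1.25 and 11 CPM in IR+CF-2. Abca12, a lipid transporter, had 116, 133 and 122 against 8.4, 0 and 13.7 CPM, and Slc13a1, a sulfate transporter, 78.3, 64 and 70.5 against 3.92, 0.192 and 8.31 CPM. These 3 genes were low in every IR+CF-2 library, and none of the 5 was past the edgeR test (adjusted p = 0.267 for Tgm3, 0.238 for Mptx1, 0.238 for Osr2, 0.343 for Abca12 and 0.245 for Slc13a1).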
